A study of Mus musculus with 12 samples.

Results

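RNA of 6 genes of the signal transducer and activator of transcription (STAT) family, Stat2, Stat3, Stat4, Stat5a, Stat5b and Stat6, was followed in mouse donor T cells taken from the recipient liver in a transplant model of acute graft-versus-host disease. The 6 genes were chosen by name from the 25078 genes of a bulk RNA-Seq count table, and all 6 passed the filter on low counts. The table held 12 libraries in 6 groups of 2. Lethally irradiated wild-type BALB/c recipients were given T cell-depleted bone marrow from wild-type C57BL/6 mice together with Thy1.2+ T cells from C57BL/6 donors, and donor CD4+ or CD8+ T cells were sorted from the liver 6 days later. The donor T cells were wild type (WT), deficient in STAT3 (STAT3ko), or deficient in both STAT3 and PD-1 (STAT3ko PD-1ko). The Stat3 deletion was made with floxed alleles and a Cre recombinase under the CD4 promoter, which acts in the T lineage, including CD8+ cells that pass through a CD4-expressing stage. PD-1 deficiency was a germline deletion crossed into that line, and no group lacked PD-1 alone. Each library came from lymphocytes pooled over 3 recipients, so 2 libraries are 2 pools.

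STAT proteins are latent transcription factors. A cytokine brings its receptor chains and their bound Janus kinases together, the kinases phosphorylate the receptor and then the STAT protein, and STAT dimers enter the nucleus and bind DNA. STAT2 pairs with another STAT and IRF9 after type I interferon. STAT3 acts downstream of IL-6, IL-21 and IL-23 and drives the Th17 program, STAT4 acts downstream of IL-12 and drives IFN-γ production, STAT5A and STAT5B act downstream of IL-2, IL-7 and IL-15, and STAT6 acts downstream of IL-4. SOCS proteins and CISH, themselves products of STAT target genes, restrain the pathway.

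The markers of the sort separated the CD4+ from the CD8+ libraries as labelled. Summed Cd4 and Zbtb7b, the factor that commits cells to the CD4 lineage, reached 1318 to 2145 CPM (counts scaled to a common library size) in the CD4+ libraries and 41.6 to 91.1 CPM in the CD8+ libraries, and summed Cd8a and Cd8b1 reached 1149 to 2395 CPM in the CD8+ libraries and 10.8 to 25.02 CPM in the CD4+ libraries. Library totals were close, from 21676125 to 24551477 counts. The least abundant member, Stat2, had 750 to 1841 counts per library, and Stat3 had 2970 to 11030. The summed T cell markers were lowest in STAT3ko PD-1ko, but not all genes moved alike. In CD4+ cells Cd28 averaged 994 ± 529 CPM in WT, 951 ± 416 in STAT3ko and 523 ± 182 in STAT3ko PD-1ko. Cd3e there stayed at 605 ± 101, 681 ± 72.6 and 598 ± 16.6 CPM (SD, n = 2). The summed level of 7 pan-T cell genes averaged 4826 ± 692 CPM (SD, n = 2) in WT CD4+ cells, 4662 ± 496 in STAT3ko and 3650 ± 301 in STAT3ko PD-1ko, and in CD8+ cells 4268 ± 342, 4079 ± 245 and 3017 ± 139. Cd8a and Cd8b1 summed to 2309 ± 122 CPM (SD, n = 2) in WT CD8+ cells, 2214 ± 218 in STAT3ko and 1161 ± 17.0 in STAT3ko PD-1ko, and Cd4 and Zbtb7b summed to 2049 ± 56.6, 2018 ± 180 and 1396 ± 110 CPM in the CD4+ groups. The 9 hepatocyte genes together stayed at 1.16 to 3.96 CPM, with 1 to 4 of them at 0 in every library. The 8 macrophage genes summed to 33.7 CPM in WT, 30.8 in STAT3ko and 18.3 in STAT3ko PD-1ko CD8+ cells, and 2 NK cell genes to 52.6, 40.9 and 17.1 CPM. Most of the macrophage sum was Cd68, at 29, 27.5 and 17.6 CPM, and the other 7 genes together gave 0.89 and 8.47 CPM in the 2 WT libraries, 0.35 and 6.26 in STAT3ko and 0.65 and 0.71 in STAT3ko PD-1ko, with the high value in replicate 2 of WT and of STAT3ko. In CD4+ cells the macrophage genes summed to 13.4, 10.1 and 10.4 CPM and the NK cell genes to 11.5, 16.9 and 14.5 CPM. Summed B cell genes, nearly all Cd79b with Ms4a1 at 0 in every library, gave 12.7, 13.2 and 5.62 CPM in CD8+ and 1.77 to 2.00 CPM in CD4+ group means. Nearly all of the NK signal was Klrb1c, since Ncr1 was at or near 0. In bulk RNA, fewer cells of a type and less RNA per cell cannot be told apart, and the part of these shifts in the results below was not tested.

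The members sit in 3 clusters on the genome (mm10). Stat5b (chr11:100780731-100850581, minus strand), Stat5a (chr11:100859351-100885169, plus strand) and Stat3 (chr11:100886806-100939540, minus strand) lie side by side, with 8.769 kb between Stat5b and Stat5a and 1.636 kb between the facing 3′ ends of Stat5a and Stat3. Stat6 (chr10:127642986-127660987, plus strand) and Stat2 (chr10:128270498-128292853, plus strand) are 609.5 kb apart. Stat4 (chr1:51987148-52107189, plus strand) stands alone. Stat5a and Stat5b share part of their transcript sequence: of the 51-base words of their transcripts, the read length used, 16.2% of Stat5a and 11.6% of Stat5b also occur in another member, against 0.367% of Stat3 and none of Stat2 or Stat6. Their separate counts are uncertain to that extent. For Stat4, 28.5% of words also occur in Gm28177, which the count table does not list. Stat2 overlaps Apof and Stat6 overlaps Nab2, and the strand setting of the counting was not given in the sources used here, so reads in the overlaps cannot be assigned with certainty.

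STAT dimers bind a palindrome with a spacing of 3 or 4 bases, and the interferon-activated complex with STAT2 binds repeated GAAA. The RefSeq promoters of GRCm38.p6, from 250 bases before to 50 after each start, were searched on both strands for TTC and GAA separated by 3 bases, TTC and GAA separated by 4 bases, and a pair of GAAA separated by 2 bases, which 8.3%, 6.95% and 3.44% of all 32851 promoters hold. Of the 9 promoters of the 6 members, 2 held a match, the single Stat2 promoter and the second of the Stat4 promoters. Of the 10 STAT2 target genes with a promoter in the set, 6 (60%) held the GAAA pair, against 3.99% of all genes. These genes were listed as known interferon-stimulated targets, so that share is a description of the list. The palindrome with a spacing of 3 was held by 14.3% of STAT3, 50% of STAT4, 40% of STAT5 and 20% of STAT6 target genes. Those lists had 7, 6, 5 and 5 genes in the set, and the share of all genes was 9.55%. Windows of 30 bases are shown for both members and for 4 target genes whose values follow, 5′ to 3′ on the gene's strand, with matched letters in capitals. The first 2 are shown because they are the only matches among the members, the next 3 as targets of the interferon and cytokine response, and Cish for its paired palindromes.
Stat2, chr10:128270272-128270301: ctggTTTCAGTTTCctTTCCCTAGAActca
Stat4, chr1:52008133-52008162: aatgtcttcaGAAAGTGAAAtttagaacgg
Ifit1, chr19:34640785-34640814: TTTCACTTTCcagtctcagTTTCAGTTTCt
Isg15, chr4:156200871-156200900: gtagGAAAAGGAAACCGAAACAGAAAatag
Socs1, chr16:10785597-10785626: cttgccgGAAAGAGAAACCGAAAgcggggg
Cish, chr9:107296654-107296683: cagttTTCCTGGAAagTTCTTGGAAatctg
In Stat2 and Ifit1 the GAAA pair is on the opposite strand and reads as a pair of TTTC, and Stat2 also holds a palindrome with a spacing of 4 after it. A match is a description of these letters and says nothing of occupancy.

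Stat4 was the most abundant member and Stat2 the least. Levels are given as TMM-scaled RPKM (reads per kilobase of gene, at a common library size), a per-length scale on which genes can be compared. Over all 12 libraries, Stat4 ranged from 112 to 169 RPKM with a median of 135, at the 96.9th percentile of tested genes. Stat6 had a median of 55.2 (42.0 to 68.0), Stat5b 26.2 (24.2 to 32.0), Stat5a 23.9 (18.7 to 33.6) and Stat2 9.94 (7.41 to 18.3), the last at the 50.3th percentile. In the 4 WT libraries Stat4 ranked highest and Stat6 below Stat3, which measured 81.5 to 103 RPKM. The ranges of Stat3, Stat4 and Stat6 did not overlap in WT, and Stat5a (21.03 to 32.4) and Stat5b (24.7 to 32.0) could not be ranked beyond their spread. In STAT3ko, Stat3 (29.98 to 36.3 RPKM) overlapped Stat5b (26.0 to 31.5) and lay below Stat6 (58.7 to 68.0). The range of Stat5b over all libraries was the narrowest of the 6, its highest library being 1.32 times its lowest, against 3.45 for Stat3 and 2.47 for Stat2.

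**Figure D1:**
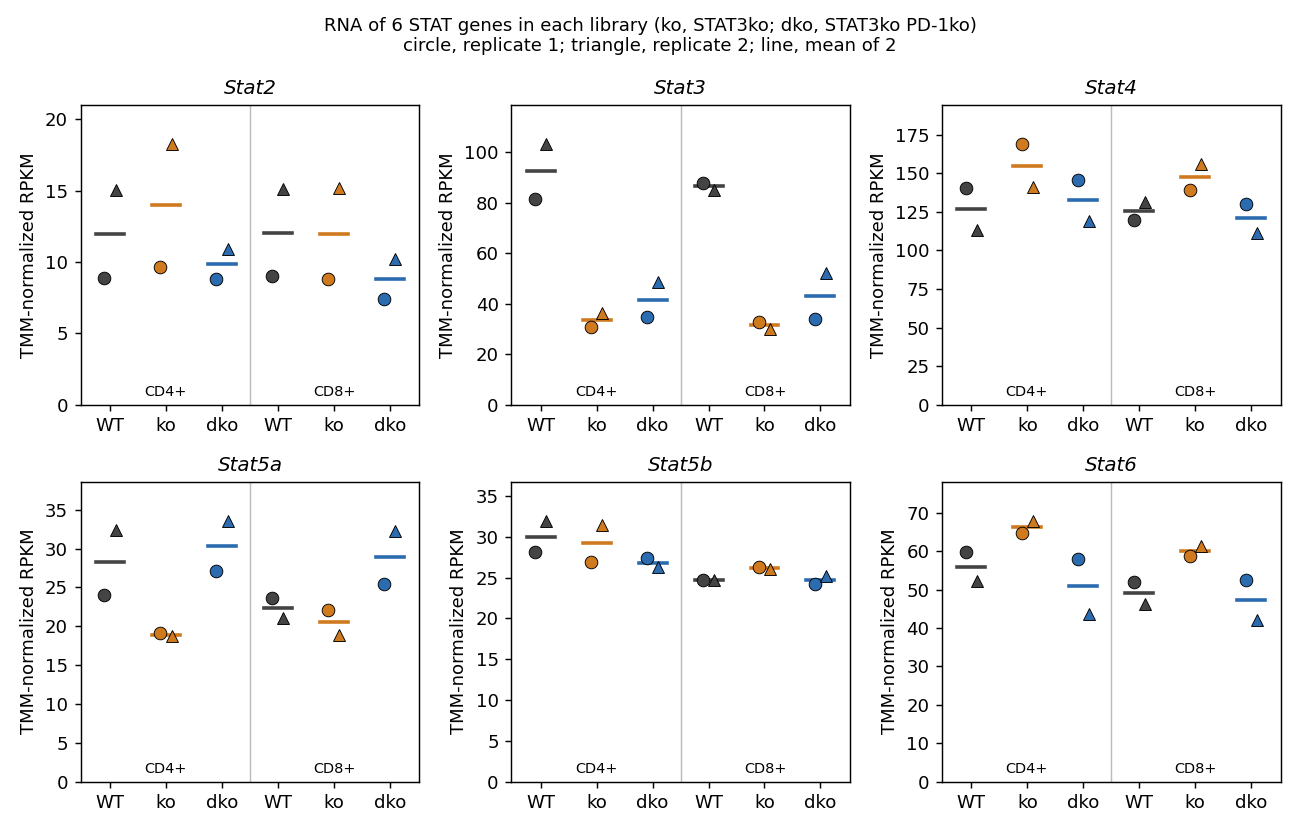
TMM-scaled RPKM (linear axes from 0) of each STAT gene in the 12 libraries, by group (ko, STAT3ko; dko, STAT3ko PD-1ko; CD4+ left, CD8+ right); circles are replicate 1, triangles replicate 2 and lines the mean of 2. Stat3 lies at 81.5 to 103 RPKM in WT and at 29.98 to 52.0 in both deficient genotypes, and Stat5b lies between 24.2 and 32.0.

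Stat3, the targeted gene, was detected in every library and lay lower in all deficient ones. Stat3 measured 81.5 and 103 RPKM in the WT CD4+ libraries, 30.9 and 36.3 in STAT3ko, and 34.7 and 48.4 in STAT3ko PD-1ko. In CD8+ cells it measured 87.8 and 85.03 in WT, 32.9 and 29.98 in STAT3ko, and 34.0 and 52.0 in STAT3ko PD-1ko. Every deficient library lay below every WT library of its subset, and mean Stat3 RNA in STAT3ko was 36.4% of WT in both subsets, 45.0% in STAT3ko PD-1ko CD4+ cells and 49.7% in STAT3ko PD-1ko CD8+ cells. The counts are summed over the whole gene, so the exons that hold the remaining reads are not known here, and the level of RNA with an intact reading frame cannot be read from them.

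Tested across all genes with edgeR's quasi-likelihood test and Benjamini-Hochberg adjustment, Stat3 was lower in STAT3ko PD-1ko than in WT. The log2 fold change was -1.13 (SE 0.22, adjusted p = 0.018) in CD4+ cells and -0.996 (SE 0.20, adjusted p = 0.0177) in CD8+ cells. Between STAT3ko PD-1ko and STAT3ko, Stat3 was not called by edgeR. That difference was 0.33 (SE 0.215, adjusted p = 0.353) in CD4+ and 0.47 (SE 0.195, adjusted p = 0.141) in CD8+ cells. Within replicates 1 and 2 it was 0.165 and 0.417 in CD4+ cells, and 0.046 and 0.794 in CD8+ cells. In STAT3ko against WT the log2 fold change was -1.46 in both subsets (SE 0.22 and 0.20), with adjusted p of 0.055 in CD4+ and 0.108 in CD8+ cells by edgeR, although Stat3 ranked 46th of 11959 and 14th of 12002 genes by unadjusted p. DESeq2 gave adjusted p of 1.99e-07 and 3.62e-09 for the same difference, and edgeR with a replicate block gave 0.00197 and 0.092. The CD4+ call in STAT3ko PD-1ko was lost without WT replicate 2 (-0.95, adjusted p = 0.0687), without STAT3ko PD-1ko replicate 1 (-0.90, 0.112) and without STAT3ko PD-1ko replicate 2 (-1.40, 0.075), and the CD8+ call held without each library in turn (highest adjusted p 0.048). For STAT3ko in CD4+ cells the call was gained without WT replicate 1 (-1.62, 0.0493) and without STAT3ko replicate 2 (-1.59, 0.0417).

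Pdcd1, which encodes PD-1, was tested as the second targeted gene. It measured 247 and 235 CPM in WT CD4+ cells, 261 and 323 in STAT3ko, and 55.1 and 26.0 in STAT3ko PD-1ko. In CD8+ cells it measured 376 and 307 CPM in WT, 424 and 454 in STAT3ko, and 93.6 and 65.6 in STAT3ko PD-1ko. Only the STAT3ko PD-1ko libraries were low, by log2 fold changes against WT of -2.55 (SE 0.33, edgeR adjusted p = 0.00566) in CD4+ and -2.09 (SE 0.19, 0.00243) in CD8+ cells. As for Stat3, the exons that hold the remaining Pdcd1 reads are not known here. In both subsets Pdcd1 lay above WT in STAT3ko without passing the test (0.28, edgeR adjusted p = 0.841, and 0.36, 0.534). The CD4+ value was 0.112 without STAT3ko replicate 2, and the CD8+ value ranged from 0.224 to 0.507 without 1 library at a time.

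Stat3 was the only member to pass the edgeR test in any genotype comparison. In STAT3ko against WT, edgeR called 0 of 6 members in CD4+ and 0 of 6 in CD8+ cells, where 0.334% and 0.0583% of all genes tested were called. At an unadjusted p under 0.05 there were 2 and 1 members, beside 10.5% and 11% of all genes, and DESeq2 called 1 in each subset, Stat3, beside 2.27% and 1.97% of all genes. In STAT3ko PD-1ko against WT, 1 of 6 was called in each subset, Stat3 again, where 12.9% and 17.2% of all genes were called, and 1 and 2 members, beside 28.7% and 34% of all genes, were under an unadjusted p of 0.05. In STAT3ko PD-1ko against STAT3ko, 0 of 6 were called in CD4+ and 0 of 6 in CD8+ cells, where 11.1% and 16.8% of all genes were called. Of the 6 members, 1 and 3 were under an unadjusted p of 0.05, beside 29.4% and 34.4% of all genes, and DESeq2 called 1 in each subset, Stat5a, beside 17.9% and 23.9% of all genes. The 3 genotype comparisons of a subset share libraries and are not independent. Against WT, the 6 members had a median log2 fold change of 0.10 in STAT3ko and -0.13 in STAT3ko PD-1ko CD4+ cells, beside 0.01 and -0.01 over all genes, and 0.03 and -0.05 in CD8+ cells, beside -0.01 and -0.000618 over all genes.

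**Figure D2:**
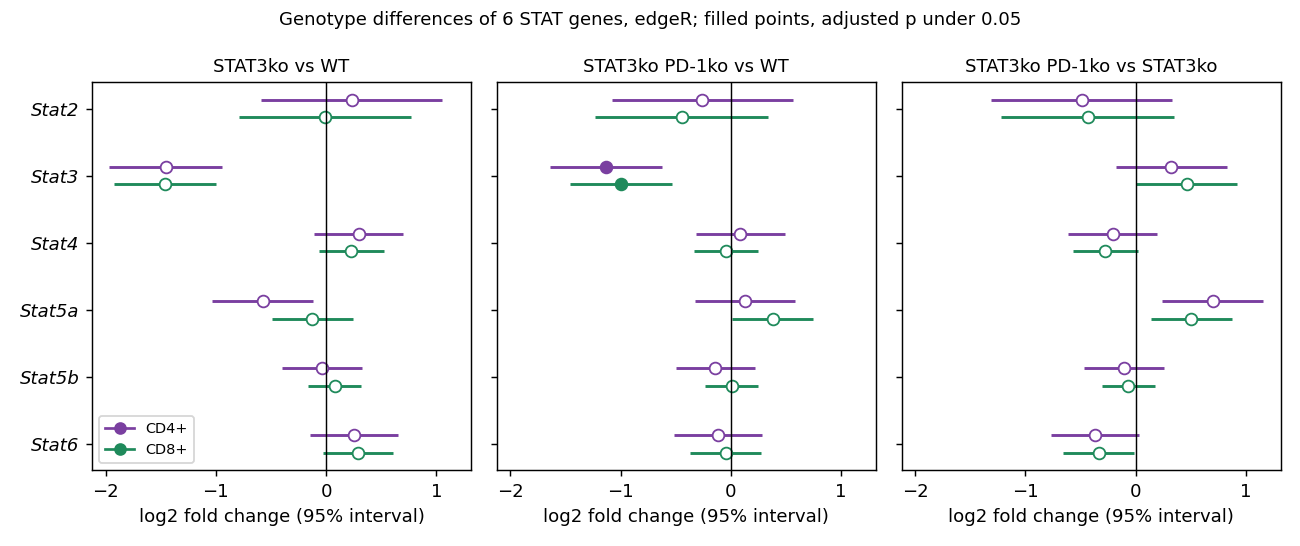
Log2 fold changes of the 6 STAT genes with 95% intervals in 3 genotype comparisons, for CD4+ and CD8+ cells; filled points have an adjusted p under 0.05. Only Stat3 in STAT3ko PD-1ko against WT is filled (-1.13 and -0.996), and the Stat5a intervals lie above 0 in STAT3ko PD-1ko against STAT3ko.

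Stat5a, one of the mediators of IL-2 and IL-7 signals, had its lowest means in STAT3ko. It measured 24.04 and 32.4 RPKM in WT CD4+ cells, 19.2 and 18.7 in STAT3ko, and 27.1 and 33.6 in STAT3ko PD-1ko. In CD8+ cells the values were 23.7 and 21.03, 22.1 and 18.9, and 25.5 and 32.3 RPKM. In both subsets the STAT3ko PD-1ko libraries lay above both STAT3ko libraries. The log2 difference of STAT3ko PD-1ko from STAT3ko was 0.70 (SE 0.20, 95% interval 0.24 to 1.16) in CD4+ and 0.51 (SE 0.16, 0.14 to 0.88) in CD8+ cells, with edgeR adjusted p of 0.0608 and 0.0659, short of the threshold. DESeq2 gave adjusted p of 0.0141 and 0.028, limma on the deposited RPKM gave 0.0625 and 0.0732, and edgeR with a replicate block gave 0.0117 and 0.0566. The CD8+ difference was 0.313 without STAT3ko PD-1ko replicate 2. STAT3ko lay below WT in CD4+ cells by a log2 fold change of -0.57 (SE 0.20, edgeR adjusted p = 0.338) without overlap, a value that was -0.34 without WT replicate 2, and by -0.13 in CD8+ cells with overlap. Because 16.2% of its 51-base words occur in Stat5b or Stat3, the value for Stat5a carries the uncertainty described above. Stat5b itself differed by -0.14 to 0.08 on the log2 scale in all 6 genotype comparisons.

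Stat4 and Stat6 had their highest means in STAT3ko. Stat4, the mediator of IL-12, measured 140.2 and 113 RPKM in WT, 169 and 141 in STAT3ko, and 146 and 119 in STAT3ko PD-1ko CD4+ cells. The CD8+ values were 119.8 and 131, 139 and 156, and 130.4 and 112. Both STAT3ko libraries were above both WT libraries in each subset, by 0.30 (SE 0.17, edgeR adjusted p = 0.646) and 0.23 (SE 0.12, 0.575) on the log2 scale, which did not pass the test. Without 1 library at a time these values ranged from 0.147 to 0.451 in CD4+ and from 0.14 to 0.317 in CD8+ cells, the CD4+ value being lowest when WT replicate 2 was left out and highest when WT replicate 1 was. Stat6, the mediator of IL-4, measured 59.8 and 52.3 RPKM in WT, 64.7 and 68.0 in STAT3ko, and 58.0 and 43.8 in STAT3ko PD-1ko CD4+ cells. In CD8+ cells it measured 52.0 and 46.3, 58.7 and 61.4, and 52.5 and 42.0. STAT3ko was the highest group in both subsets with no overlap. The log2 differences of Stat6 were 0.25 and 0.29 for STAT3ko against WT (edgeR adjusted p = 0.716 and 0.513) and -0.37 and -0.34 for STAT3ko PD-1ko against STAT3ko (0.2 and 0.131). Without 1 library at a time the first pair ranged from 0.154 to 0.34 and from 0.209 to 0.368, and the second from -0.574 to -0.189 and from -0.518 to -0.195, smallest in size without STAT3ko PD-1ko replicate 2. Non-overlap of 2 against 2 libraries is common here: 38.2% of all genes tested in CD4+ and 43.6% in CD8+ cells did not overlap between STAT3ko and WT, beside 4 of 6 members in each subset. The shares were 59.2% and 59.7% for STAT3ko PD-1ko against WT, beside 2 and 2 members, and 59.2% and 63.1% against STAT3ko, beside 2 and 5 members. An exact permutation test of 2 against 2 cannot go below p = 0.333.

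The make-up of the summed RNA of the 6 genes differed by genotype. The summed level of the 6 genes was 317 to 348 RPKM in WT, 288 to 320.5 in STAT3ko and 273 to 302 in STAT3ko PD-1ko. Stat3 gave 23.8 to 29.7% of that sum in the 4 WT libraries, 9.66 to 11.6% in STAT3ko and 11.5 to 19.03% in STAT3ko PD-1ko. Stat4 gave 32.5 to 40.9%, 44.9 to 52.8% and 40.8 to 48.3%, and Stat6 gave 14.3 to 17.4%, 19.99 to 21.7% and 15.4 to 19.2%. Because shares add up to the whole, a smaller share of Stat3 raises the others, and these shares are given as a description.

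**Figure D3:**
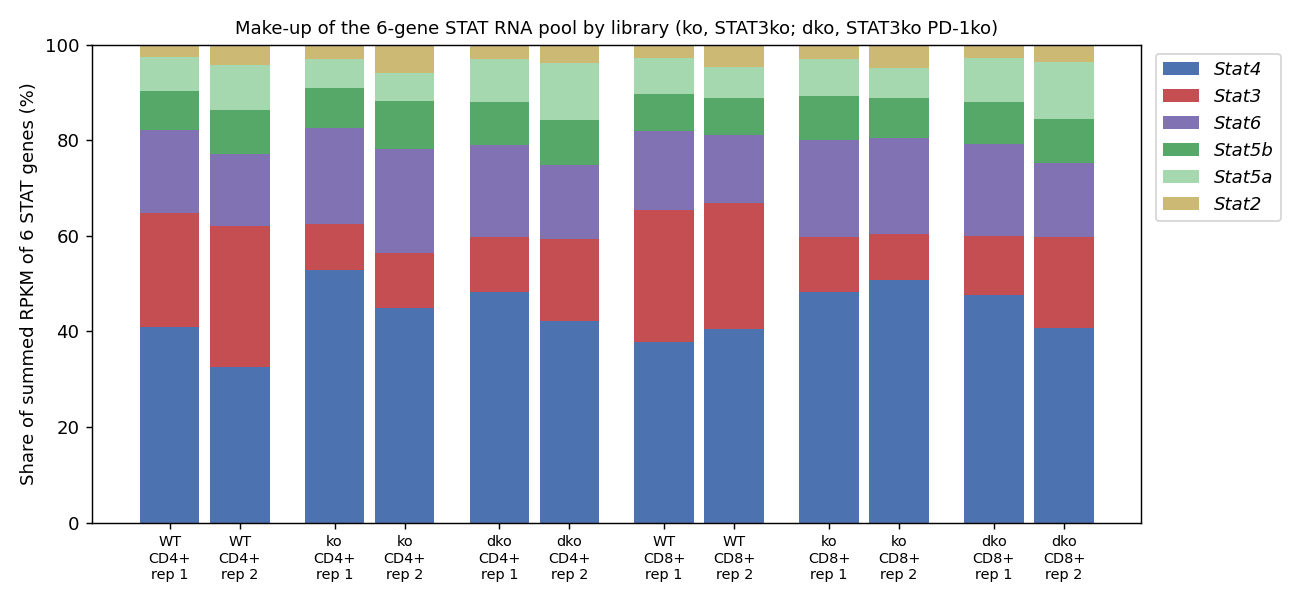
Share of the summed RPKM of the 6 STAT genes held by each, in percent, as stacked bars from 0 for each of the 12 libraries (ko, STAT3ko; dko, STAT3ko PD-1ko). The Stat3 segment is 23.8 to 29.7% in WT and 9.66 to 19.03% in the deficient libraries.

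The Stat2 libraries differed by replicate number in every group. It measured 8.88 and 15.1 RPKM in replicates 1 and 2 of WT CD4+ cells, 9.69 and 18.3 in STAT3ko and 8.79 and 10.9 in STAT3ko PD-1ko, and in CD8+ cells 9.04 and 15.1, 8.79 and 15.2, and 7.41 and 10.2. Replicate 2 was higher in 6 of 6 groups, by ratios of 1.24 to 1.89. The numbers that open the sample names place the 2 replicate numbers in separate runs of numbers. Its genotype differences lay between -0.49 and 0.23 on the log2 scale with SE of 0.33 to 0.35, and none passed the test. For the other members, replicate 2 was higher in 4 of 6 groups for Stat3, 3 of 6 for Stat5a and Stat5b, and 2 of 6 for Stat4 and Stat6.

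No STAT gene passed the test between CD4+ and CD8+ cells, which came from the same liver tissue per the study. edgeR called 0 of 6 members between CD8+ and CD4+ cells in WT, STAT3ko and STAT3ko PD-1ko, where 10.5%, 9.62% and 4.14% of all genes were called. At an unadjusted p under 0.05 there were 1, 0 and 0 members, beside 22.1%, 22% and 14.7% of all genes, and DESeq2 called 0 in each, beside 12.3%, 11.7% and 6.15% of all genes. The widest interval in WT was that of Stat2, -0.85 to 0.87 on the log2 scale, and that of Stat3 was -0.58 to 0.39. Stat5b was the most regular: 28.1 and 32.0 RPKM in WT CD4+ against 24.8 and 24.7 in WT CD8+ cells, 26.9 and 31.5 against 26.3 and 26.0 in STAT3ko, and 27.5 and 26.2 against 24.2 and 25.2 in STAT3ko PD-1ko. The CD8+ libraries were below the CD4+ libraries in all 3 genotypes, where 48.1%, 47.5% and 46.5% of all genes did not overlap in either direction, by -0.28 (SE 0.12, edgeR adjusted p = 0.193), -0.16 (SE 0.12, 0.497) and -0.12 (SE 0.12, 0.763) on the log2 scale. These values ranged from -0.363 to -0.192, from -0.285 to -0.0405 and from -0.153 to -0.0793 without 1 library at a time. With a block for pools matched by replicate number, 0 members were called as before. The number of all genes called rose from 1294 to 2991 in WT, from 1187 to 3077 in STAT3ko and from 511 to 1774 in STAT3ko PD-1ko. The genotype effects themselves were not found to differ between the subsets: edgeR called 0 of 6 members in each of the 3 interactions (0 at an unadjusted p under 0.05, beside 1.85%, 4.43% and 3.59% of all genes, and 0 by DESeq2), beside 0%, 0.00811% and 0% of all genes. For Stat3 in STAT3ko against WT the CD8+ minus CD4+ difference was 0.00 (SE 0.31, 95% interval -0.69 to 0.69), an interval that leaves room for a difference of up to 0.69 either way. The largest interaction of STAT3ko against WT was that of Stat5a, 0.45 (SE 0.26, unadjusted p = 0.109, edgeR adjusted p = 1).

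Genes around the STAT proteins were followed in 8 lists: cytokine receptors, Janus kinases, negative regulators, and known targets of STAT2, STAT3, STAT4, STAT5 and STAT6. They hold 68 different genes, of which 66 were tested in CD4+ and 63 in CD8+ cells. In STAT3ko PD-1ko against WT, 17 of 66 (25.8%) were lower and 1 higher in CD4+ cells, where 5.65% of all genes were lower and 7.21% higher. In CD8+ cells 19 of 63 (30.2%) were lower and 2 higher, where 8.21% and 9.01% of all genes were. In both subsets 12 were lower: Bcl2, Bcl3, Cish, Ifngr1, Il17a, Il18rap, Il21r, Il27ra, Il2rg, Jak1, Jak3 and Socs1. In STAT3ko against WT, edgeR called 0 of 66 and 0 of 63 listed genes, where 0.334% and 0.0583% of all genes were called. With a replicate block it called 4 higher and 3 lower in CD4+ cells, where 1.08% of all genes were higher and 1.45% lower, and 0 in CD8+ cells, where 0.075% were called. At an unadjusted p under 0.05, CD4+ and CD8+ cells had 6 and 5 receptors, 1 and 1 Janus kinases, 3 and 3 negative regulators, 3 and 2 STAT5 targets, 1 and 1 STAT4 targets and 2 and 1 STAT6 targets in that comparison, and DESeq2 called 2 and 0, 0 and 1, 0 and 0, 1 and 0, 0 and 0, and 2 and 0 members of these lists. Over all genes, 10.5% and 11% were under that unadjusted p and DESeq2 called 2.27% and 1.97%. Between STAT3ko PD-1ko and STAT3ko, 14 of 66 (21.2%) were lower and 1 higher in CD4+ cells and 17 of 63 (27%) and 2 in CD8+ cells, where 5.03% and 8.05% of all genes were lower and 6.05% and 8.76% higher. The sum of the pan-T cell markers was also lower in STAT3ko PD-1ko, as given above, and its part in these differences was not tested. The calls rest on 2 pools a group: without 1 library at a time, all genes called in STAT3ko PD-1ko against WT went from 1538 to between 62 and 676 in CD4+ and from 2066 to between 111 and 1107 in CD8+ cells, and those in STAT3ko PD-1ko against STAT3ko from 1324 to between 0 and 1185 and from 2017 to between 2 and 1194. Of the genes of these lists and of the Stat3 neighbourhood, Bcl2 in CD8+ cells in STAT3ko PD-1ko against WT was the only one to keep its call without every library in turn.

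Among 19 cytokine receptor chains, most lay lower in STAT3ko PD-1ko. Against WT, 15 of 18 tested had negative log2 fold changes in CD4+ and 13 of 17 in CD8+ cells. Their medians were -0.51 and -0.33, beside -0.01 and -0.000618 over all genes. Of them, 6 and 5 were called lower, beside 5.65% and 8.21% of all genes. With a replicate block, Ifnar2, Il12rb1 and Il23r were also lower in CD4+ cells (edgeR adjusted p = 0.0332, 0.0262 and 0.0167). In CD8+ cells the block added Il15ra and Il4ra as lower (0.0263 and 0.0347) and Il2ra as higher (0.0299). It called 12.2% of all genes lower in CD4+ cells, and 12.1% lower and 12.6% higher in CD8+ cells. Il27ra, the IL-27 receptor chain that signals through JAK1, measured 175 and 149 CPM in WT, 138 and 161 in STAT3ko and 78.9 and 61.2 in STAT3ko PD-1ko CD4+ cells, and 104 and 97.0, 85.5 and 100.4, and 56.6 and 50.1 in CD8+ cells. The STAT3ko PD-1ko libraries were lowest in both subsets, by -1.19 (SE 0.18, edgeR adjusted p = 0.00893) and -0.91 (SE 0.13, 0.00849) against WT. The CD4+ call was lost without either STAT3ko PD-1ko replicate (highest adjusted p 0.0924) and the CD8+ call without STAT3ko PD-1ko replicate 2 (0.072). Il2rg, the common γ chain shared by the IL-2, IL-4, IL-7, IL-15 and IL-21 receptors, fell by 0.67 and 0.63 on the log2 scale (edgeR adjusted p = 0.0165 and 0.00823). Il7r fell by 0.92 and Il4ra by 0.92 in CD4+ cells (edgeR adjusted p = 0.0159 and 0.0236), and Ifnar2, a chain of the type I interferon receptor, by 0.91 in CD8+ cells (0.00946). Il12rb2, the IL-12 receptor chain that recruits STAT4, was higher in CD8+ cells (0.45, edgeR adjusted p = 0.0342). Il2ra, the high-affinity IL-2 receptor chain and a STAT5 target, went the other way from most receptors. It measured 270 and 292 CPM in WT, 166 and 191 in STAT3ko and 349.5 and 277 in STAT3ko PD-1ko CD4+ cells, and 293 and 267, 231 and 225, and 409 and 334 in CD8+ cells. It was higher in STAT3ko PD-1ko than in STAT3ko by 0.83 (SE 0.17, edgeR adjusted p = 0.0263) and 0.71 (SE 0.13, 0.0143), with no overlap. The call was lost in CD4+ cells without STAT3ko replicate 1 or either STAT3ko PD-1ko replicate (highest adjusted p 0.127), and in CD8+ cells without STAT3ko replicate 2 or either STAT3ko PD-1ko replicate (0.0804).

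Of the 4 Janus kinases, Jak1 and Jak3, the pair that serves common γ chain receptors, were lower in STAT3ko PD-1ko than in WT in both subsets, and Jak2 and Tyk2 were not called. The medians of the 4 were -0.42 and -0.46, beside -0.01 and -0.000618 over all genes, of which 5.65% and 8.21% were called lower. Jak1 measured 1301 and 1269 CPM in WT, 1290 and 1287 in STAT3ko, and 832 and 868.3 in STAT3ko PD-1ko CD4+ cells. The CD8+ values were 1259 and 1099.5, 1274 and 1248, and 721 and 707. STAT3ko and WT overlapped and the STAT3ko PD-1ko libraries lay below both, by -0.57 (SE 0.12, edgeR adjusted p = 0.0234) and -0.71 (SE 0.10, 0.00738) against WT and -0.58 (0.0275) and -0.81 (0.00591) against STAT3ko. Jak3 measured 209.9 and 283 CPM in WT, 125 and 175 in STAT3ko, and 142 and 129 in STAT3ko PD-1ko CD4+ cells, and 224 and 254, 142 and 149, and 131 and 134 in CD8+ cells. Both deficient genotypes lay below WT, and the call was made for STAT3ko PD-1ko (-0.84, SE 0.22, edgeR adjusted p = 0.0478 in CD4+, and -0.84, SE 0.12, 0.00756 in CD8+ cells) but not for STAT3ko (-0.71, 0.291, and -0.72, 0.141). The Jak1 call in CD4+ cells was lost without each of the 4 libraries (highest adjusted p 0.136), and the Jak3 call without WT replicate 2 and without either STAT3ko PD-1ko replicate (highest 0.259). In CD8+ cells both calls against WT were lost without STAT3ko PD-1ko replicate 2 (0.072 for Jak1 and 0.065 for Jak3).

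Among 16 negative regulators, 3 were lower in STAT3ko PD-1ko than in WT in each subset, beside 5.65% and 8.21% of all genes. The medians were -0.24 and -0.21, beside -0.01 and -0.000618 over all genes. Cish, the STAT5-induced inhibitor whose promoter holds the paired palindromes shown above, measured 193 and 155 CPM in WT, 123 and 126 in STAT3ko, and 73.7 and 50.6 in STAT3ko PD-1ko CD4+ cells. The CD8+ values were 84.1 and 57.5, 62.2 and 61.9, and 32.9 and 26.3. It was lowest in STAT3ko PD-1ko in both subsets, by -1.46 (SE 0.21, edgeR adjusted p = 0.00766) and -1.25 (SE 0.20, 0.00999) against WT, a call lost in each subset only without STAT3ko PD-1ko replicate 2 (adjusted p 0.075 and 0.0873). Socs1, the inhibitor of JAK1 and JAK2 with 2 overlapping GAAA elements above, fell by 0.79 and 0.77 on the log2 scale (edgeR adjusted p = 0.0478 and 0.0295). Socs2 fell by 0.76 in CD4+ cells (0.0285) and Ptpn1 by 0.40 in CD8+ cells (0.0408). With a replicate block, Ptpn1 was also lower in CD4+ cells (-0.48, edgeR adjusted p = 0.0171) and Ptpn11 was higher (0.35, 0.042). The block called 12.2% of all genes lower and 13.8% higher there. Socs5 was lower in STAT3ko PD-1ko than in STAT3ko in both subsets (-1.51 and -1.26, edgeR adjusted p = 0.0235 and 0.029). Socs3, the classical STAT3-induced inhibitor, measured 136 and 104 CPM in WT, 100.5 and 29.3 in STAT3ko, and 45.7 and 19.9 in STAT3ko PD-1ko CD4+ cells. The CD8+ values were 139 and 62.3, 86.3 and 27.5, and 45.7 and 21.02 CPM. Replicate 1 was the higher in 6 of 6 groups. The log2 difference of STAT3ko PD-1ko from WT was -1.85 and -1.59 without a call (edgeR adjusted p = 0.0756 and 0.116), and with a replicate block it was -2.00 and -1.58 (edgeR adjusted p = 0.00269 and 0.00294).

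STAT3 target genes had negative medians against WT in both deficient genotypes. The median of 7 tested genes in CD4+ cells was -0.89 in STAT3ko and -1.57 in STAT3ko PD-1ko against WT, and that of 6 in CD8+ cells was -0.75 and -1.24. All 7 and all 6 had negative values in STAT3ko, and 0 and 0 of them were called by edgeR (3 and 2 at an unadjusted p under 0.05, 2 and 2 by DESeq2). Of all genes, 0.334% and 0.0583% were called by edgeR, 10.5% and 11% were under the unadjusted p and 2.27% and 1.97% were called by DESeq2. With a replicate block edgeR called Bcl3 and Il17a in CD4+ cells (adjusted p = 0.017 and 0.0147), beside 2.53% of all genes. Other lists were also negative in STAT3ko CD4+ cells: the median of STAT6 targets was -0.86, with 4 of 4 negative, and that of STAT5 targets -0.56, with 7 of 7 negative. In STAT3ko CD8+ cells those medians were 0.18 and -0.19. In STAT3ko PD-1ko 2 and 2 were called lower, Bcl3 and Il17a in each subset, beside 5.65% and 8.21% of all genes. With a replicate block, Socs3, Il23r and Pim1 were also lower in CD4+ cells (edgeR adjusted p = 0.00269, 0.0167 and 0.0347). In CD8+ cells the block added Socs3 (edgeR adjusted p = 0.00294). It called 12.2% and 12.1% of all genes lower. Il17a, the Th17 cytokine, gave 87 counts in WT CD4+ cells and 0 in STAT3ko (at most 4.52% of WT by the 95% interval). A floor of 3 counts over the group would be 3.6% of WT, inside that interval. Il17a gave 2 counts in STAT3ko PD-1ko CD4+ cells (2.17% of WT after scaling, 95% interval 0.259 to 8.08%). In CD8+ cells it gave 91 counts in WT, 10 in STAT3ko (11%, 5.09 to 21.1%) and 9 in STAT3ko PD-1ko (9.97%, 4.42 to 19.8%). These intervals are exact and cover counting error only, and the gene had few counts also in WT. Bcl3, a nuclear IκB family member, was more abundant. It measured 30.9 and 67.2 CPM in WT, 13.04 and 17.8 in STAT3ko and 15.6 and 17.0 in STAT3ko PD-1ko CD4+ cells, and 26.2 and 35.1, 11.05 and 9.49, and 10.5 and 11.7 in CD8+ cells. The deficient libraries did not overlap WT, and the difference of STAT3ko PD-1ko from WT was -1.57 (SE 0.36, edgeR adjusted p = 0.0309) and -1.46 (SE 0.20, 0.00696). The call was lost in CD4+ cells without WT replicate 2 or either STAT3ko PD-1ko replicate (highest adjusted p 0.179) and in CD8+ cells without STAT3ko PD-1ko replicate 2 (0.0651). Batf, which encodes a partner of IRF4 in the same program, stayed between 93.0 and 148 CPM in all 12 libraries. Between STAT3ko PD-1ko and STAT3ko, 0 of 7 were called in CD4+ cells by edgeR (0 at an unadjusted p under 0.05, 0 by DESeq2), beside 11.1%, 29.4% and 17.9% of all genes, and the median of 0.22 became 0.10 with the 2 genes at the count floor set to their bound. In CD8+ cells Il21 was higher, at 13.4 and 7.84 against 4.01 and 2.58 CPM (1.70, SE 0.36, edgeR adjusted p = 0.0232).

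**Figure D4:**
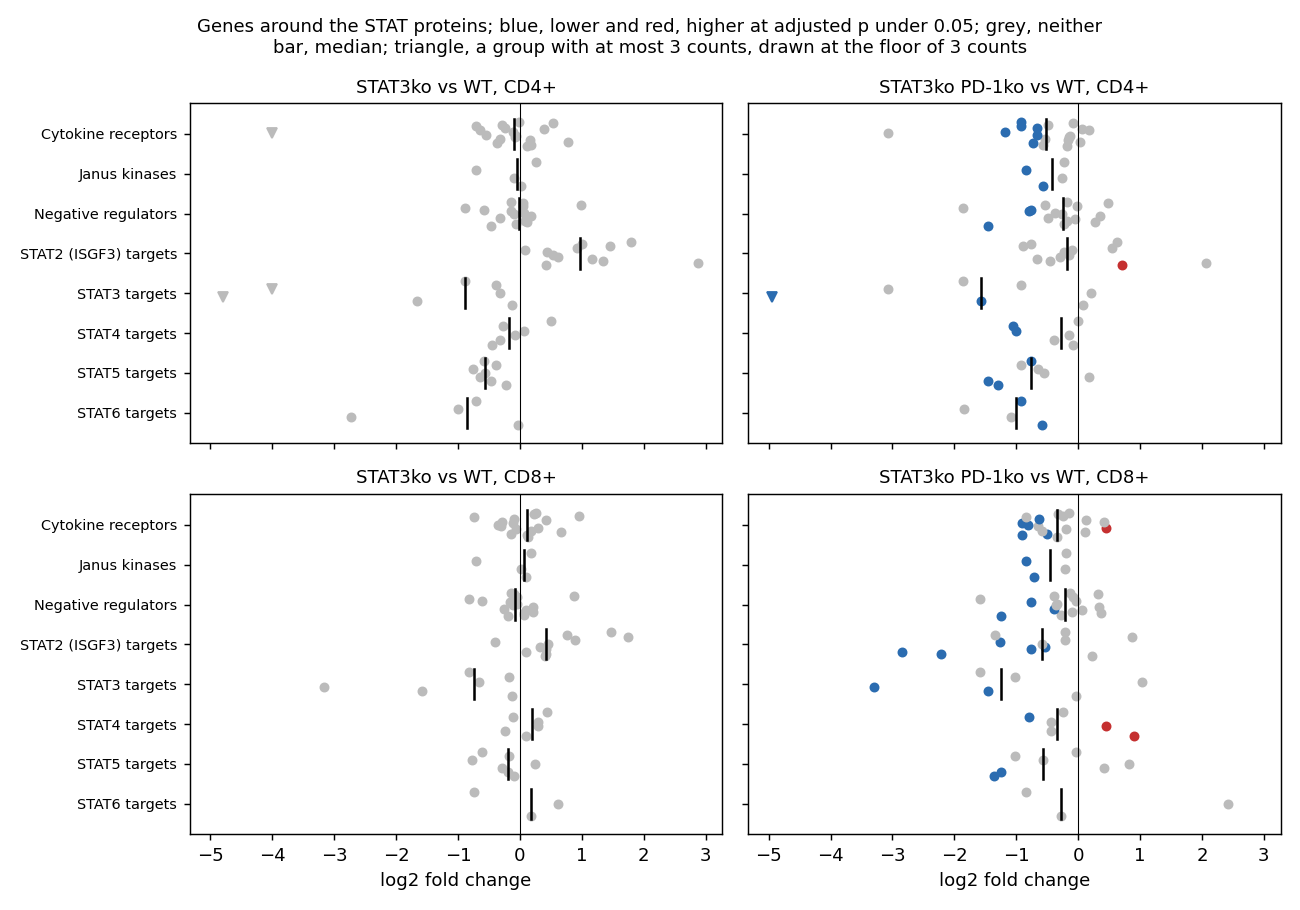
Log2 fold changes against WT of the genes of 8 lists around the STAT proteins, in STAT3ko and STAT3ko PD-1ko and in CD4+ and CD8+ cells; blue points were called lower and red higher at an adjusted p under 0.05, bars are list medians, and triangles mark genes with at most 3 counts in a group, placed at their bound. A gene in 2 lists is drawn in both. In STAT3ko PD-1ko 17 and 19 different genes are blue, and in STAT3ko none.

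STAT5 targets were lower in part. In STAT3ko PD-1ko against WT, 3 of 7 were lower in CD4+ cells and 2 of 7 in CD8+ cells, beside 5.65% and 8.21% of all genes. The medians were -0.76 and -0.57, beside -0.01 and -0.000618 over all genes. Bcl2, the anti-apoptotic gene, measured 306 and 298 CPM in WT, 243 and 271 in STAT3ko and 127 and 116 in STAT3ko PD-1ko CD4+ cells. The CD8+ values were 278 and 237, 238 and 245, and 106 and 93.0. The STAT3ko PD-1ko libraries were far below the rest, by -1.29 (SE 0.14, edgeR adjusted p = 0.00414) and -1.36 (SE 0.13, 0.00259) against WT. The CD4+ call was lost without STAT3ko PD-1ko replicate 2 (adjusted p 0.0623). So within 1 list Bcl2 and Cish were lower in STAT3ko PD-1ko than in STAT3ko, while Il2ra was higher.

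Among 6 STAT4 targets, 2 were lower in STAT3ko PD-1ko CD4+ cells against WT, where 5.65% of all genes were lower. In CD8+ cells 1 was lower and 2 higher, where 8.21% and 9.01% of all genes were. The medians were -0.28 and -0.35, beside -0.01 and -0.000618 over all genes. Over the alternatives that kept all libraries, the CD8+ count of 3 fell to as low as 1. Il18r1 and Il18rap, the IL-18 receptor chains, fell by 0.998 and 1.05 on the log2 scale in STAT3ko PD-1ko CD4+ cells against WT (edgeR adjusted p = 0.0101 and 0.0132), and Il18rap by 0.79 in CD8+ cells (0.0483). Furin, the protease gene induced by IL-12, was higher in CD8+ cells, at 306 and 446 against 202 and 203 CPM (0.90, SE 0.23, edgeR adjusted p = 0.0391), as was Il12rb2. With limma on the deposited RPKM, the CD8+ calls of Furin and Il18rap were lost. Ifng, the main product of the STAT4 axis, measured 483 and 237 CPM in WT, 450.4 and 126 in STAT3ko and 386 and 153 in STAT3ko PD-1ko CD4+ cells, replicate 1 being the higher in every group. Among STAT6 targets, with medians of -1.01 in CD4+ and -0.28 in CD8+ cells, Gata3 and Il4ra fell by 0.58 and 0.92 in STAT3ko PD-1ko CD4+ cells (edgeR adjusted p = 0.0391 and 0.0236), and 0 of 3 were called in CD8+ cells by edgeR (2 at an unadjusted p under 0.05, 1 by DESeq2, and 1 with a replicate block, Il4ra, at -0.79, edgeR adjusted p = 0.0347), where 17.2% of all genes were called, 34% were under the unadjusted p, and DESeq2 and the block called 22.7% and 24.7%.

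Most interferon-stimulated targets of the STAT2 complex had their highest mean in STAT3ko, 11 of 12 tested in CD4+ and 10 of 11 in CD8+ cells, beside 31.8% and 30.3% of all genes. The exceptions were Bst2, highest in STAT3ko PD-1ko CD4+ cells, and Mx1, highest in WT CD8+ cells. In STAT3ko against WT, 12 of 12 had positive log2 fold changes in CD4+ cells (median 0.96, beside 0.01 over all genes) and 10 of 11 in CD8+ cells (median 0.42, beside -0.01). None passed the edgeR test, while 10 and 5 were under an unadjusted p of 0.05 and DESeq2 called 3 and 1, beside 10.5% and 11% of all genes under that p and 2.27% and 1.97% called by DESeq2. With a replicate block edgeR called 4 higher in CD4+ cells, Ifit1 (1.32, adjusted p = 0.017), Oasl2 (1.46, 0.0265), Oas1a (0.92, 0.0424) and Ifit3 (1.19, 0.0495), where 1.08% of all genes were higher, and 0 in CD8+ cells. In STAT3ko PD-1ko against STAT3ko, 6 of 12 were lower in CD4+ cells and 8 of 11 in CD8+ cells, where 5.03% and 8.05% of all genes were lower, with medians of -0.86 and -1.10. Ifit1, whose promoter holds 2 GAAA elements, measured 6.87 and 5.04 CPM in WT, 18.6 and 11.5 in STAT3ko and 4.93 and 3.65 in STAT3ko PD-1ko CD4+ cells. The CD8+ values were 6.94 and 7.79, 9.15 and 10.6, and 1.90 and 1.27. STAT3ko was the highest group and STAT3ko PD-1ko the lowest in both subsets, differing by -1.79 (SE 0.31, edgeR adjusted p = 0.0174) and -2.63 (SE 0.27, 0.0036), calls lost in CD4+ cells without either STAT3ko PD-1ko replicate (highest adjusted p 0.175) and in CD8+ cells without STAT3ko PD-1ko replicate 2 (0.0555). Ifit3, an interferon-induced gene next to it, differed by -1.83 and -2.94 (0.0168 and 0.00766), Irf7, the amplifier of interferon transcription, by -0.91 and -1.18 (0.0259 and 0.0143), and Rsad2, encoding viperin, by -1.76 and -2.10 (0.0288 and 0.0233). Isg15, the ubiquitin-like modifier, measured 7.59 and 4.91 CPM in WT, 10.4 and 6.45 in STAT3ko and 6.02 and 4.49 in STAT3ko PD-1ko CD4+ cells, and 5.96 and 4.55, 7.64 and 6.75, and 3.67 and 3.27 in CD8+ cells. It was lower in STAT3ko PD-1ko than in STAT3ko in CD8+ cells (-1.04, edgeR adjusted p = 0.0286) and was not called in CD4+ cells (-0.66, 0.226; with a replicate block -0.64, 0.0485). Irf9, the DNA-binding partner of STAT2, measured 94.4 and 99.7 CPM in WT, 132 and 148 in STAT3ko and 90.9 and 81.8 in STAT3ko PD-1ko CD4+ cells, and 88.6 and 93.4, 107 and 119.7, and 68.3 and 57.1 in CD8+ cells. It was lower in STAT3ko PD-1ko than in STAT3ko by 0.68 and 0.85 on the log2 scale (edgeR adjusted p = 0.0309 and 0.0109). Against WT, Bst2 was higher in CD4+ cells (0.71, edgeR adjusted p = 0.0369), and Ifit1, Ifit3, Irf7, Irf9 and Mx1 were lower in CD8+ cells (-0.53 to -2.84). In the interaction of STAT3ko PD-1ko against WT with subset, edgeR called 0 of 66 listed genes. At an unadjusted p under 0.05 there were 14 (21.2%), beside 4.43% of all genes. DESeq2 called 2, Ifit1 and Ifit3, beside 0.608% of all genes. With a block for pools matched by replicate number edgeR called 3, Furin, Ifit3 and Il13, beside 0.681% of all genes. In the interactions of STAT3ko against WT and of STAT3ko PD-1ko against STAT3ko, 0 of 66 were called by edgeR in either, with or without that block, or by DESeq2. At an unadjusted p under 0.05 there were 6 (9.09%) and 4 (6.06%), beside 1.85% and 3.59% of all genes. Of all genes, edgeR called 0% and 0%, edgeR with that block 0% and 0.178%, and DESeq2 0.0405% and 0.197%. Stat2 itself was called in no comparison. The macrophage marker sum, mostly Cd68, was lowest in STAT3ko PD-1ko among the CD8+ groups, and its part was not tested. Per the study's methods these cells were sorted as H-2Kb+TCRβ+CD8+.

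Stat3 lies beside Stat5a and Stat5b, so genes near the targeted locus were also read. The table lists 24 genes within 250 kb of Stat3, of which 15 were tested in CD4+ and 17 in CD8+ cells. In STAT3ko against WT 0 of 15 and 0 of 17 were called by edgeR, with 1 and 1 at an unadjusted p under 0.05, beside 0.334% and 0.0583% of all genes called and 10.5% and 11% under that unadjusted p. In STAT3ko PD-1ko against WT 3 of 15 were called in CD4+ cells, Psmc3ip (1.23, edgeR adjusted p = 0.0181), Tubg1 (0.61, 0.0346) and Retreg3 (-0.59, 0.0455), and 1 of 17 in CD8+ cells, Rab5c (-0.39, 0.0436), beside 12.9% and 17.2% of all genes. At an unadjusted p under 0.05 there were 4 of 15 and 10 of 17, beside 28.7% and 34% of all genes. Against STAT3ko, 3 of 15 were called in CD4+ cells, Psmc3ip (0.98, edgeR adjusted p = 0.0399), Tubg1 (0.64, 0.0345) and Retreg3 (-0.70, 0.032), and 2 of 17 in CD8+ cells, Dhx58 (-0.73, 0.0193) and Retreg3 (-0.55, 0.0238), beside 11.1% and 16.8% of all genes, and 5 and 7 were under an unadjusted p of 0.05, beside 29.4% and 34.4%. The nearest gene, Stat5a, was not called by edgeR in these comparisons. Its unadjusted edgeR p was 0.0203 in CD4+ and 0.447 in CD8+ cells for STAT3ko against WT. For STAT3ko PD-1ko it was 0.535 and 0.0445 against WT, and 0.00805 and 0.0139 against STAT3ko. All tested neighbours lay between -1.30 and 1.23 on the log2 scale in CD4+ cells and between -0.46 and 1.44 in CD8+ cells in STAT3ko PD-1ko against WT. In STAT3ko against WT they lay between -0.57 (Stat5a) and 0.71 (Cntnap1) in CD4+ cells. In CD8+ cells they lay between -1.17 (Atp6v0a1, SE 0.59) and 1.41 (Ccr10, SE 0.45) there.

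**Figure D5:**
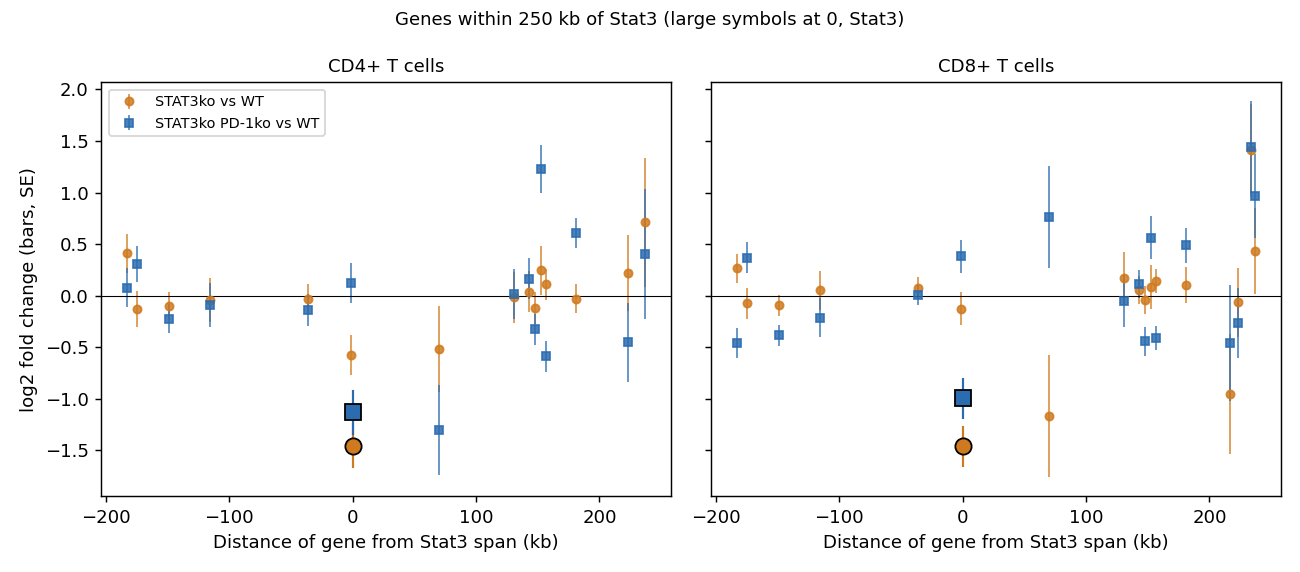
Log2 fold change against WT (points, bars are SE) of genes within 250 kb of Stat3 plotted by distance from the Stat3 span in kb, for STAT3ko and STAT3ko PD-1ko; the large symbols at 0 are Stat3. Stat3 is at -1.46 and -1.13 in CD4+ and -1.46 and -0.996 in CD8+ cells, and Stat5a, the nearest gene, is between -0.57 and 0.38.

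Across the 12 libraries, some pairs of members had like patterns and others opposite ones. Pearson correlations of log2 CPM between members are given as a description, since the libraries share genotypes, liver tissue and runs of sample numbers. They were highest for Stat4 with Stat6 (0.79) and lowest for Stat4 with Stat5a (-0.78). Stat5a and Stat6 were at -0.73 and Stat3 and Stat4 at -0.64. Among 8605 genes whose log2 CPM averaged 3 or more, those most like each member by the same measure were Ssbp4 (0.97), 2310011J03Rik (0.97) and Acpp (0.94) for Stat3, Krcc1 (0.93), S100a10 (0.92) and Rnf13 (0.92) for Stat4, and Rubcn (0.98), Golga3 (0.97) and Fbh1 (0.97) for Stat6. For Stat5a they were Hras (0.96), Ppp1r2 (0.94) and Tm7sf3 (0.93), for Stat5b Ucp2 (0.93), Plcb3 (0.93) and Terf2ip (0.92), and for Stat2 Zfp169 (0.97), Gna11 (0.96) and Ogt (0.96).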

How the data were processed

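Donor T cell RNA was sequenced as single-end reads of 51 bases. Per the study's methods the authors aligned the reads with STAR to mm10, counted them per gene with HTSeq-count on RefSeq, and scaled them with TMM. The labels name another library kit and carry a cell culture protocol that does not describe these cells. The deposited table gives raw counts per gene, the unit of every test, and RPKM computed by the authors, used in 1 alternative. Groups came from the sample labels. edgeR 4.0.16 (R 4.3.3) was used for filterByExpr (at least 10 counts, 15 in total), TMM and quasi-likelihood tests, with limma 3.58.1 and DESeq2 1.42.0 as alternatives. Genotypes were compared within the 6 libraries of a subset (3 residual degrees of freedom), and CD8+ with CD4+ cells and interactions in all 12 libraries (6). P-values were adjusted by Benjamini-Hochberg over all genes tested (threshold 0.05), and an SE is the absolute log2 fold change over the square root of F. Intervals of ratios of counts are exact. Scripts were tested on simulated data.

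Per the study, the CD8+ cells came from the same liver tissue of recipients as the CD4+ cells. That same-numbered CD4+ and CD8+ libraries share a pool was inferred from the labels and is not stated. Deviations of replicate 1 from the group mean correlated between subsets of a genotype at 0.642 to 0.874. A block for pools matched by replicate number was therefore fitted for CD8+ against CD4+ cells. Between genotypes, same-numbered libraries share a replicate number and a consecutive run of sample numbers, and the labels do not say what either marks. A replicate block there was an alternative.

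The named genes are the 6 members, Pdcd1, up to 4 genes of each list with the largest called change in STAT3ko PD-1ko against WT, those called in STAT3ko against WT, genes within 250 kb of Stat3, and the 3 genes most correlated with each member. Other listed genes named (Il2ra, Il21, Batf, Socs3, Socs5, Ifng, Il12rb2, Rsad2, Isg15, Il13, Oas1a, Oasl2 and others called in 1 comparison) were picked with their values in view. The members and lists were chosen with earlier results of these data known, and no list median is independent evidence. A gene first put in a target list is not reported here and was left out of the list counts and medians. In the table, 26 genes carry date-like names and 4 share a name. The count table held 0 columns of other samples. Alternatives were other filters, tests, sample sets, the deposited RPKM plus a pseudocount of 1 on the log2 scale, a block for replicate and leaving out each library.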

Additional observations from a re-analysis of the deposited data

How the results depend on the processing

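The direction of Stat3 against WT held under every alternative run. The number of the 6 STAT genes called by edgeR in STAT3ko against WT went from 0 to 1 in CD4+ cells with DESeq2, with no filter on low counts, with the replicate block and with all 12 libraries in 1 fit, where Stat3 was at -1.47, -1.45, -1.45 and -1.46 (adjusted p 1.99e-07, 0.00263, 0.00197 and 0.0144), and in CD8+ cells from 0 to 1 with DESeq2, no filter and all 12 libraries (-1.46 in each, 3.62e-09, 0.00108 and 0.0452). Without 1 library at a time Stat3 ranged from -1.62 to -1.27 in STAT3ko and from -1.40 to -0.90 in STAT3ko PD-1ko CD4+ cells, the count of members called from 0 to 1 in both. For STAT3ko PD-1ko against STAT3ko the count went from 0 to 1, Stat5a, in CD4+ cells with DESeq2 (0.69), no filter (0.69), the replicate block (0.69), only the 4 libraries (0.70) and all 12 libraries (0.68), and in CD8+ cells from 0 to 1 with DESeq2, and from 0 to 1 without STAT3ko PD-1ko replicate 1, where Stat3 was called at 0.72 (adjusted p 0.0382).

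Between genotypes, same-numbered samples share a replicate number and a run of sample numbers, with no pairing given in the labels. The replicate block moved all genes called in CD4+ cells from 40 to 303, 1538 to 3104 and 1324 to 3105 (STAT3ko against WT, STAT3ko PD-1ko against WT and against STAT3ko), and deviations of same-numbered libraries correlated at 0.0397 to 0.839 within a subset. With that block, 2 listed genes were higher and 23 lower in STAT3ko PD-1ko against STAT3ko CD4+ cells (13.2% and 12.8% of all genes), and 2 and 25 against WT (13.8% and 12.2%). All genes called in STAT3ko against WT were 1 to 303 in CD4+ and 0 to 218 in CD8+ cells over the alternatives other than leaving out a library, those of STAT3ko PD-1ko against STAT3ko in CD4+ cells 1155 to 3105, those of CD8+ against CD4+ cells 818 to 2991, 523 to 3077 and 201 to 1774 (WT, STAT3ko, STAT3ko PD-1ko), and those of the interactions 0 to 8, 1 to 84 and 0 to 22.

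All signs that changed were those of uncalled values. Stat5b in STAT3ko PD-1ko against WT in CD8+ cells became -0.000615 with DESeq2, -0.00714 with no filter and -0.00198 with 12 libraries; Stat4 in CD8+ against CD4+ WT cells became 0.00231 with limma; and the Stat3 interaction in STAT3ko against WT became -0.00621 with no filter, -0.00017 with at least 10 counts in every library, -0.000306 with the replicate block and -0.00597 with the block by pool.
Without 1 library at a time, values that changed sign ranged as follows. For STAT3ko against WT, CD4, Stat2 -0.313 to 0.663, Stat5b -0.166 to 0.083. For STAT3ko PD-1ko against WT, CD4, Stat2 -0.599 to 0.171, Stat4 -0.0622 to 0.239, Stat5a -0.0835 to 0.358, Stat6 -0.324 to 0.0598. For STAT3ko PD-1ko against STAT3ko, CD4, Stat2 -0.885 to 0.0512, Stat5b -0.225 to 0.0231. For STAT3ko against WT, CD8, Stat2 -0.467 to 0.407. For STAT3ko PD-1ko against WT, CD8, Stat4 -0.171 to 0.0551, Stat5b -0.0324 to 0.0264, Stat6 -0.228 to 0.0951. For STAT3ko PD-1ko against STAT3ko, CD8, Stat2 -0.785 to 0.0157. For CD8 against CD4, WT, Stat2 -0.423 to 0.437, Stat3 -0.252 to 0.0756, Stat4 -0.168 to 0.158. For CD8 against CD4, STAT3ko, Stat2 -0.689 to 0.31, Stat3 -0.222 to 0.024, Stat4 -0.197 to 0.0516. For CD8 against CD4, STAT3ko PD-1ko, Stat2 -0.417 to 0.0565, Stat3 -0.296 to 0.331, Stat4 -0.258 to 0.0162, Stat5a -0.258 to 0.102, Stat6 -0.285 to 0.103. For the interaction STAT3ko against WT, CD8 minus CD4, Stat3 -0.172 to 0.155. For the interaction STAT3ko PD-1ko against WT, CD8 minus CD4, Stat3 -0.2 to 0.428. For the interaction STAT3ko PD-1ko against STAT3ko, CD8 minus CD4, Stat3 -0.194 to 0.433.
Of the called values of listed genes and of genes near Stat3, 553 were unchanged in call and 19 lost it over the alternatives that kept all libraries, against 114 and 214 when 1 library was left out. The Pdcd1 call in STAT3ko PD-1ko against STAT3ko was lost without STAT3ko PD-1ko replicate 2 (adjusted p 0.0701 in CD4+ and 0.0504 in CD8+ cells). Each member had at least 750 counts in each library. With 2 pools a group small differences may go uncalled. Rab5c was called at -0.39 (SE 0.10) in STAT3ko PD-1ko against WT CD8+ cells. That call was lost with no filter on low counts and with only the 4 libraries compared. In the same comparison the SE of the members ran from 0.10 for Stat5b to 0.33 for Stat2, so Rab5c does not show what could be detected for them.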
